A study of Homo sapiens with 60 samples.

Results

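The 9 genes described here act in the display of peptides on MHC class I molecules, and were followed in SW1783 cells, a human astrocytoma line, treated with plant extracts. They were chosen by symbol, as the rows of HLA-B, HLA-C, HLA-E, B2M, TAP1, TAP2, PSMB8, PSMB9 and HCP5 in the deposited gene table. All 9 of 9 were found among its 60675 genes and all 9 passed the filter on low counts, which 19366 genes passed. The study treated the cells for 24 h with extracts made with 70% ethanol from single herbs or from traditional Korean prescriptions of several herbs, and sequenced their RNA. Polygalae Radix was given at 30, 6 and 1.2 µg/mL and Aucklandiae Radix at 160, 32 and 6.4 µg/mL, with 2 libraries a dose. Guibi-tang, Saengmaek-san, Menthae Herba and Saposhnikoviae Radix were given at 500, 100 and 20 µg/mL, with 3 libraries a dose. Soyo-san, with 2 libraries a dose, and Okbyeongpung-san, with 1 library a dose, were given at 500, 100 and 20 µg/mL as well. The largest of the 3 doses is called high, the next medium and the smallest low. The vehicle group of 3 libraries received dimethyl sulfoxide and no extract. Its share was 0.1% in the sample records and higher in the series text, so the sources differ. All 60 libraries come from the same line, and the labels do not say whether replicates were separate cultures, so p-values measure the spread between libraries, which may be technical.

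Class I molecules carry short peptides from the inside of the cell to its surface, where CD8 T cells read them. Proteasomes cut proteins into peptides, and interferon exchanges some of their catalytic subunits for PSMB8 and PSMB9, which makes the immunoproteasome. The TAP1 and TAP2 subunits form the transporter that pumps the peptides into the endoplasmic reticulum, and there they are loaded on a heavy chain (such as HLA-B, HLA-C or HLA-E) paired with the light chain B2M. HLA-E presents mostly leader peptides of other class I chains and is a ligand of an inhibitory receptor of natural killer cells. HCP5 is a noncoding RNA encoded in the class I region. Astrocytes carry little class I at rest and raise it after interferon, with IRF1 and the class I coactivator NLRC5 among the regulators.

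In GENCODE 29 on GRCh38, 8 of the genes lie in the MHC on the short arm of chromosome 6. HLA-C (6:31268749-31272130) and HLA-B (6:31269491-31357188) are on the minus strand and their annotated spans overlap, and HLA-E (6:30489467-30494205) is on the plus strand. TAP2 (6:32821833-32838780), PSMB8 (6:32840717-32844703) and TAP1 (6:32845209-32853978), all on the minus strand, adjoin PSMB9 (6:32844136-32859585) on the plus strand, whose span overlaps that of TAP1. HCP5 (6:31400702-31477506, plus strand) overlaps the gene of MICA, a stress-induced ligand of natural killer cells. B2M lies on chromosome 15 (15:44711487-44718877, plus strand).

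Promoters of class I genes are known for kappa B sites and for boxes bound by regulators that NLRC5 joins. The windows of HLA-B, HLA-C and HCP5 are shown together because they resemble each other. Each runs from 250 bases before to 50 bases after a RefSeq start site on GRCh38.p14, with a window for 8 of the 9 genes. Capitals mark GGGNNTTCC, TGACG and CCAAT on either strand, and no 2 of these matches overlap in the 3 windows. The HLA-C window is 6:31272043-31272342 and the HLA-B window 6:31357130-31357429, both on the minus strand. The HCP5 window is 6:31462930-31463229 on the plus strand.
HLA-B: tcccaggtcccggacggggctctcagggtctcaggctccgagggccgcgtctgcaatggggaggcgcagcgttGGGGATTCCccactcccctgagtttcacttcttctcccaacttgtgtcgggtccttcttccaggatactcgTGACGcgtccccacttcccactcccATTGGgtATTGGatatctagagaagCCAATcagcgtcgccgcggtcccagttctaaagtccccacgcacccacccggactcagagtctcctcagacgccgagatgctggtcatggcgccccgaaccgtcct
HLA-C: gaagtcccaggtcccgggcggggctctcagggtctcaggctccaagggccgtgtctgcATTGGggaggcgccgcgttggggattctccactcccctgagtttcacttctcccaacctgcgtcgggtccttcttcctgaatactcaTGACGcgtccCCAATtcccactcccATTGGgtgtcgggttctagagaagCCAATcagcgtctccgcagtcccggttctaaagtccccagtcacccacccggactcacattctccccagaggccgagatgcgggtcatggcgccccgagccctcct
HCP5: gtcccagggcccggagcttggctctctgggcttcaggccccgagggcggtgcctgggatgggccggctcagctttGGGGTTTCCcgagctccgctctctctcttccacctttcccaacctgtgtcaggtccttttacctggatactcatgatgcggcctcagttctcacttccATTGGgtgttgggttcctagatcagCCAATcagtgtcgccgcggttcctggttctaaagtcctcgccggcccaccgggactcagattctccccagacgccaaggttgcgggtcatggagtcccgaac
The HLA-B and HLA-C windows were identical at 269 of 296 aligned bases (90.9%). HCP5 and HLA-B were identical at 234 of 292 (80.1%). GGGNNTTCC was found in HLA-B and HCP5 and not in HLA-C, against 6.58% of all 35116 RefSeq windows of the same length. TGACG was found in HLA-B and HLA-C but not in HCP5, against 24.6% of all windows. All 3 windows held CCAAT, which 34.6% of all windows hold. A match is a run of letters and shows no binding.

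The second set shows in capitals, on either strand, the core of the interferon-stimulated response element, through which interferon regulatory factors act: GAAA, any 2 bases and GAAA again, which reads TTTC, any 2 bases and TTTC on the reverse strand. The windows are TAP1 (6:32853655-32853954, minus), TAP2 (6:32838690-32838989, minus), PSMB8 (6:32843998-32844297, minus) and B2M (15:44711267-44711566, plus).
TAP1: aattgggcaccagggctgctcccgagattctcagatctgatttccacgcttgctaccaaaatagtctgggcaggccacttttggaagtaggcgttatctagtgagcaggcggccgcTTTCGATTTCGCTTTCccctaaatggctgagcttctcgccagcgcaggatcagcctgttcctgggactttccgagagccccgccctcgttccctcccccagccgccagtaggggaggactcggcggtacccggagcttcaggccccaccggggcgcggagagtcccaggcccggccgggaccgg
TAP2: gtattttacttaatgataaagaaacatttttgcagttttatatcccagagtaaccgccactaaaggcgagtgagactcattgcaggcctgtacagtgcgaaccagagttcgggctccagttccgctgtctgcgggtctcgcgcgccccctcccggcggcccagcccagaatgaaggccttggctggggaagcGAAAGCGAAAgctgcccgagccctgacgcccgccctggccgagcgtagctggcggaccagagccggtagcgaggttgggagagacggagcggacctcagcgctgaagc
PSMB8: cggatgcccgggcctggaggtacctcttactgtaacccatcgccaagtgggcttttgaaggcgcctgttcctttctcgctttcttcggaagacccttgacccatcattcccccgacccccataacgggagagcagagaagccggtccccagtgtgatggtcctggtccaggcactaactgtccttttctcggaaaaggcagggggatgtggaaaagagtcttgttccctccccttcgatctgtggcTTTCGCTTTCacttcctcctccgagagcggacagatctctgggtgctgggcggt
B2M: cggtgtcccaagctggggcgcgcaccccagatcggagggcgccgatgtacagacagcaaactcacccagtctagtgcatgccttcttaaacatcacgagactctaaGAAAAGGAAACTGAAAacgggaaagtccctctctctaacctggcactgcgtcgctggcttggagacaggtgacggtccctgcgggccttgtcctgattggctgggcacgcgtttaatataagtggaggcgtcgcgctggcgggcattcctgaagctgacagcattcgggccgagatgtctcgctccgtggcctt
The letters were found in 4 of the 10 windows of the 8 genes, against 3.57% of all windows, and the other windows of TAP1 and PSMB8 did not hold them. TAP1 and B2M each held 2 overlapping copies, 134 and 128 bases before the start site in TAP1 and 144 and 138 bases before it in B2M. TAP1 and PSMB9 are transcribed away from each other from starts 488 bases apart, and the PSMB9 window did not hold these letters.

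Expression is given in CPM, a gene's count relative to the library's total, scaled between libraries by the trimmed mean of M values (TMM). In vehicle cells B2M was the most abundant of the 9 at 567 ± 38.7 CPM (SD, n = 3), ahead of HLA-C at 378 ± 27.6 CPM, HLA-B at 294 ± 28.3 CPM and HLA-E at 234 ± 13.0 CPM. Per kilobase of median transcript length the order was B2M at 774 CPM per kb, HLA-B at 330, HLA-C at 321, HLA-E at 258, TAP2 at 50.9, TAP1 at 35.4, PSMB8 at 25.4, PSMB9 at 16.3 and HCP5 at 3.52 CPM per kb. With the median length of coding transcripts only, HLA-E was at 90.0 and TAP2 at 22.4 CPM per kb, which puts TAP2 below TAP1 (34.4) and PSMB8 (25.7), so the order among these depends on the length taken. By either length the light chain and the 3 heavy chains stood above the transporter, the immunoproteasome and HCP5. Counts of HLA-B, HLA-C and TAP1 were fractional in 100% of libraries, PSMB8 in 98.3% and TAP2 in 93.3%, against 8.33% for PSMB9, 1.67% for HLA-E and HCP5 and 0% for B2M. Fractions arise where reads fit several genes, so levels of HLA-B, HLA-C, TAP1, TAP2 and PSMB8 depend on how the counting divided such reads.

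Library totals ran between 19031094 and 37686975 counts, and between 25186538 and 26477754 in vehicle. The library names begin with a number that groups the extracts into sets, and the labels do not say what it stands for: Polygalae and Aucklandiae share one, Menthae and Saposhnikoviae the next, Saengmaek-san and Guibi-tang another, and Soyo-san and Okbyeongpung-san the last. The vehicle libraries form a set of their own, so in any comparison with vehicle the treatment and the set cannot be told apart, while high and low doses of an extract share a set. In each library, the deviation of every gene from its vehicle mean (log2) was regressed on the log2 length of its coding transcripts. The slope lay between -0.031 and 0.027 in vehicle, and 10 libraries were below -0.15 and are called length-tilted, since their short transcripts were relatively high. Of 12 markers of astrocytes and glioma, 6 reached 1 CPM in some library (VIM, CD44, EGFR, SOX9, SLC1A3 and NES), while GFAP, S100B, SOX2, AQP4, ALDH1L1 and OLIG2 stayed below 1 CPM in all 60. Of 10 leukocyte markers, 4 reached 1 CPM in some library, among them PTPRC at 10.4 CPM in vehicle, and CD3E and MS4A1 were at 0 in all 60. In bulk RNA of this kind, fewer cells expressing a gene and less RNA per cell cannot be told apart.

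**Figure D1:**
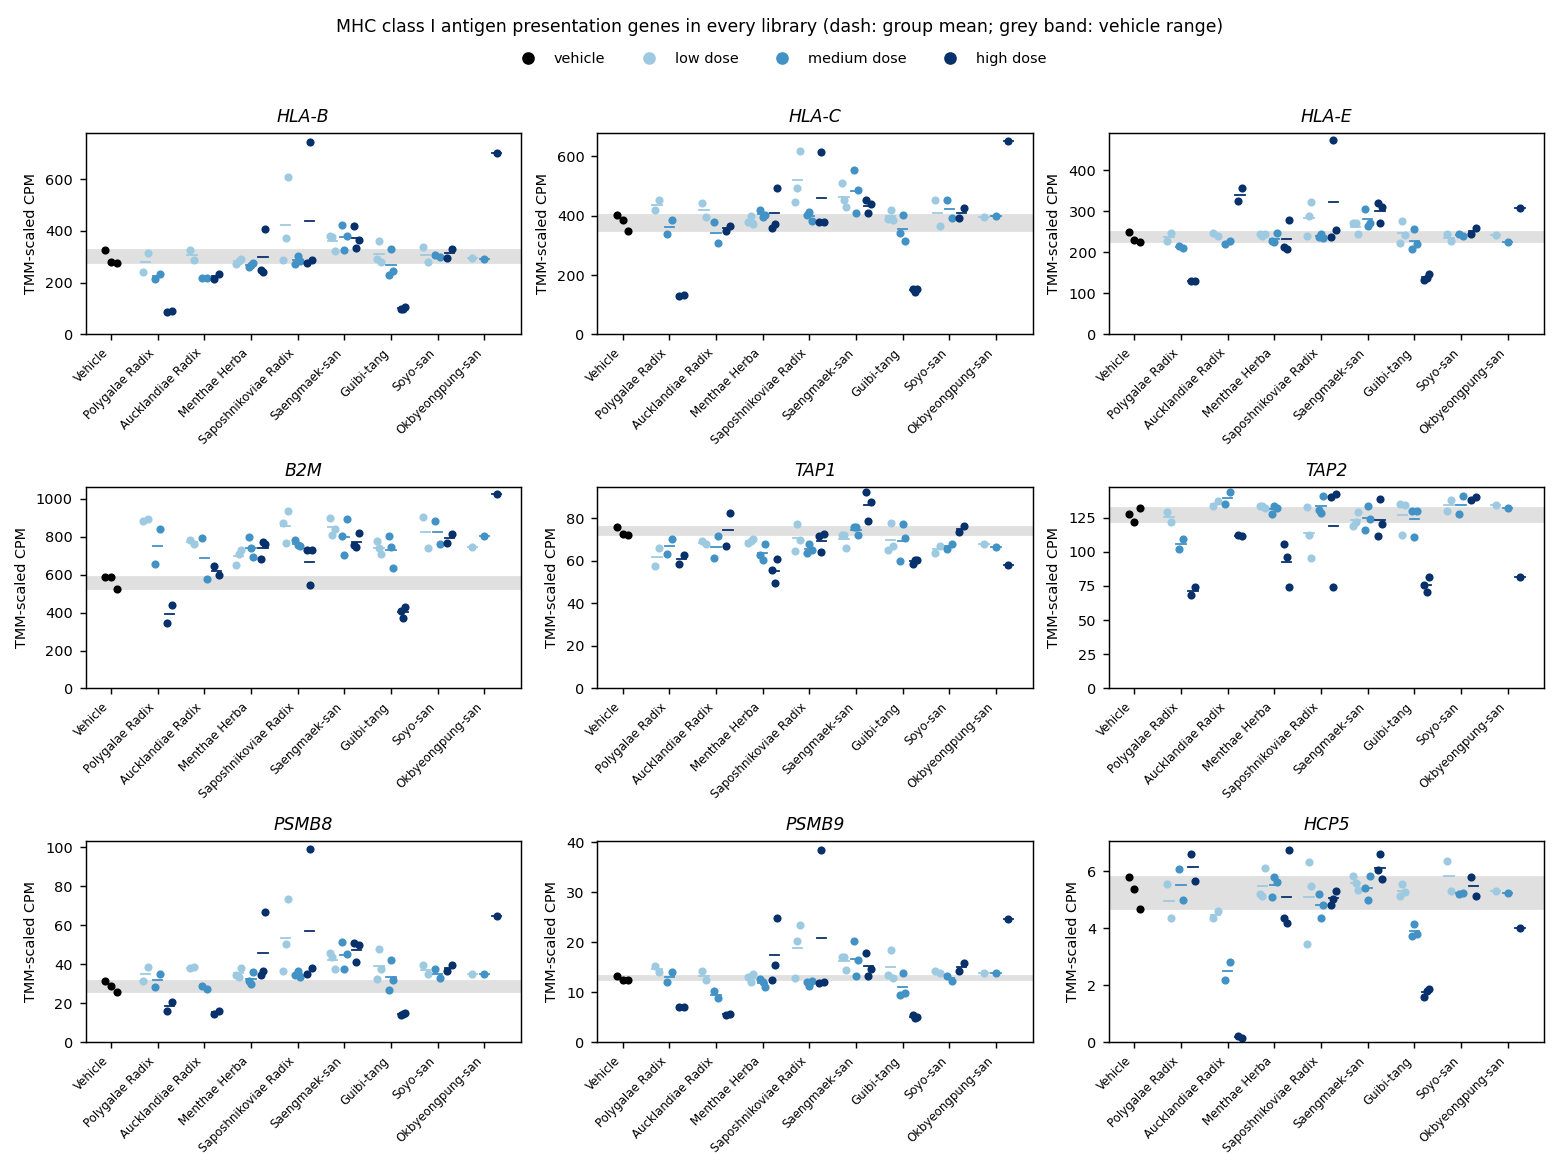
TMM-scaled CPM of each gene in every library, by group, with doses from low to high within each extract, the group mean as a dash and the vehicle range as a grey band. HLA-B and HLA-C are lowest at the high doses of Polygalae Radix (85.0 and 90.4 CPM for HLA-B) and Guibi-tang, and HCP5 is near 0 at the high dose of Aucklandiae Radix.

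The genes moved most at the high doses of Polygalae Radix and Guibi-tang. In edgeR's quasi-likelihood test with Benjamini-Hochberg adjustment over all genes tested (threshold 0.05), 7 of the 9 fell at the high dose of Polygalae Radix against vehicle, where 25.6% of all genes fell. The median log2 fold change of the 9 was -0.84, against 0.03 over all genes tested. With Guibi-tang high all 9 of 9 fell, where 26.6% of all genes fell, with a median of -0.99 against 0.03. Against the low dose of the same extract, 7 fell with Polygalae Radix (25.2% of all genes fell) and 9 fell with Guibi-tang (27.4% of all genes fell). Library composition moved with these doses as well, because TMM factors were 1.19 and 1.28 in the Polygalae Radix libraries and between 1.28 and 1.33 in the Guibi-tang libraries, against 0.932 to 0.942 in vehicle. Scaled by library totals alone, the median gene was higher by 0.42 (log2) at the high dose of Polygalae Radix and by 0.49 at that of Guibi-tang, so the changes below are relative to the middle of the transcriptome. That scaling left 4 of the 9 called with Guibi-tang (HLA-B, HLA-C, PSMB9 and HCP5). With Polygalae Radix high it left B2M without a call, turned the TAP1 change positive (0.12) and had HCP5 called higher. Of all genes called against vehicle, 72.2% were then higher with Polygalae Radix and 77.15% with Guibi-tang, in place of 46.6% and 47.1%. For Aucklandiae Radix high this share was 60.6% in place of 47.9%, for Menthae Herba high 73.1% in place of 48.6%, and for Saengmaek-san high 73.8% in place of 50.9%. The astrocyte and glioma markers summed to 1675 and 1761 CPM in the Polygalae Radix libraries and to 1994 to 2219 CPM in those of Guibi-tang, against 8439 to 8658 CPM in vehicle. The leukocyte markers summed to 3.32 and 3.78 CPM with Polygalae Radix and to 2.61 to 2.93 CPM with Guibi-tang, against 14.2 to 15.0 CPM in vehicle. Both sums rest mainly on a few genes. In vehicle these were VIM (5214 CPM) and CD44 (2888 CPM) for the first, and PTPRC (10.4 CPM) and CSF1R (3.65 CPM) for the second. SOX9 fell to no less than 42.2 CPM in any library, against 86.2 CPM in vehicle. The mitochondrial share of counts was 19.19% in replicate 2 and 11.72% in replicate 3 of Polygalae Radix high and 7.82% to 9.39% with Guibi-tang high, against 10.06% to 10.28% in vehicle. The part of any of these in the results was not tested.

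HLA-B and HLA-C, the classical heavy chains among the 9, fell furthest among the protein-coding genes of the 9 at the high dose of Polygalae Radix. HLA-B stood at 85.0 and 90.4 CPM in the Polygalae Radix high libraries, against 327, 279 and 276 CPM in vehicle. Its level was 29.85% of the vehicle mean, and the groups did not overlap. Groups without overlap are common here, at 70.8% of all genes tested for Polygalae Radix high against vehicle, 69.4% for Guibi-tang high, 64.6% for Aucklandiae Radix high and 39.9% for Menthae Herba high, so non-overlap alone does not mark a gene. The log2 fold change was -1.74 ± 0.28 (SE), with an edgeR adjusted p of 1.5e-06. HLA-C stood at 130 and 134 CPM, against 401, 385 and 348 CPM in vehicle, again without overlap, with a log2 fold change of -1.52 ± 0.16 and an edgeR adjusted p of 2.6e-10. At the low dose of Polygalae Radix, HLA-B had 241 and 315 CPM and HLA-C 418 and 453 CPM, which the edgeR test did not separate from vehicle. Against that low dose the log2 fold change was -1.66 for HLA-B and -1.72 for HLA-C, both called.

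Guibi-tang gave values close by. HLA-B stood at 98.3, 97.1 and 108 CPM at the high dose of Guibi-tang, against 327, 279 and 276 CPM in vehicle (log2 fold change -1.54 ± 0.24 SE, edgeR adjusted p = 7.5e-07). HLA-C stood at 154, 143 and 153 CPM, against 401, 385 and 348 CPM in vehicle (log2 fold change -1.34 ± 0.14 SE, edgeR adjusted p = 1.5e-10). Neither gene's Guibi-tang libraries overlapped vehicle, as for 69.4% of all genes. The fall was concentrated at the high dose: at the medium dose HLA-B had 229, 332 and 246 CPM, and at the low dose 292, 361 and 281 CPM, both overlapping vehicle. Ordered by mean, HLA-B was lowest of the 25 groups at the high dose of Polygalae Radix (87.7 ± 3.79 CPM, SD, n = 2), then at that of Guibi-tang (101 ± 5.74 CPM, SD, n = 3). The next group, Aucklandiae Radix medium, averaged 218 ± 0.825 CPM (SD, n = 2), so a wide gap parts the lowest pair from the rest.

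HLA-E, the nonclassical heavy chain, separated the extracts. The Polygalae Radix high libraries had 129 and 131 CPM, against 249, 229 and 225 CPM in vehicle, a log2 fold change of -0.85 ± 0.16 (SE, edgeR adjusted p = 3.3e-05). Those of Guibi-tang high had 132, 138 and 147 CPM, with a log2 fold change of -0.75 ± 0.14 (SE, edgeR adjusted p = 2.5e-05). With Aucklandiae Radix it rose instead: the high-dose libraries had 325 and 357 CPM, above all vehicle libraries, and the log2 fold change was 0.54 ± 0.16 (SE, edgeR adjusted p = 0.0064). Medium and low doses of Aucklandiae Radix had 220 to 247 CPM and were not called. The rise lost its call without Aucklandiae Radix high replicate 3 (edgeR adjusted p = 0.0813), and against the low dose (0.48, adjusted p = 0.0374) it lost its call without any 1 of the 4 libraries. HLA-B and HLA-C did not rise with it: at the high dose of Aucklandiae Radix HLA-B had 216 and 235 CPM and HLA-C 349.5 and 367 CPM, with log2 fold changes of -0.38 (95% interval -0.90 to 0.13) and -0.08 (95% interval -0.38 to 0.22) against vehicle. With the length slope described above as a covariate, the HLA-B change was -0.61 and was called.

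B2M, the light chain shared by all class I molecules, fell less. With Polygalae Radix high it had 345 and 440 CPM, against 590, 588 and 522 CPM in vehicle, with a log2 fold change of -0.53 ± 0.13 (SE, edgeR adjusted p = 0.00096). The call was lost without Polygalae Radix high replicate 2 (edgeR adjusted p = 0.0753). With Guibi-tang high it had 409, 371 and 428 CPM, a log2 fold change of -0.49 ± 0.12 (SE, edgeR adjusted p = 0.00049). Both groups lay below all vehicle libraries, but scaled by library totals alone the differences were -0.13 and -0.03 and were not called. In the other direction, the B2M mean was above the vehicle mean in 22 of the 24 extract groups, all but these. B2M was called higher than vehicle at the high doses of Menthae Herba (0.38), Saengmaek-san (0.45) and Soyo-san (0.48), on the log2 scale. The low doses of Polygalae Radix (0.65), Saposhnikoviae Radix (0.60), Saengmaek-san (0.59) and Soyo-san (0.54) were called too. In leave-one-out refits, these calls held throughout for Saengmaek-san high and low and Saposhnikoviae Radix low, and each of the others was lost in at least 1. Between high and low doses, which share a library set, B2M was called only with Polygalae Radix (-1.18 ± 0.15 SE, edgeR adjusted p = 8.5e-09) and Guibi-tang (-0.88 ± 0.12 SE, edgeR adjusted p = 4e-08), both lower at the high dose.

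**Figure D2:**
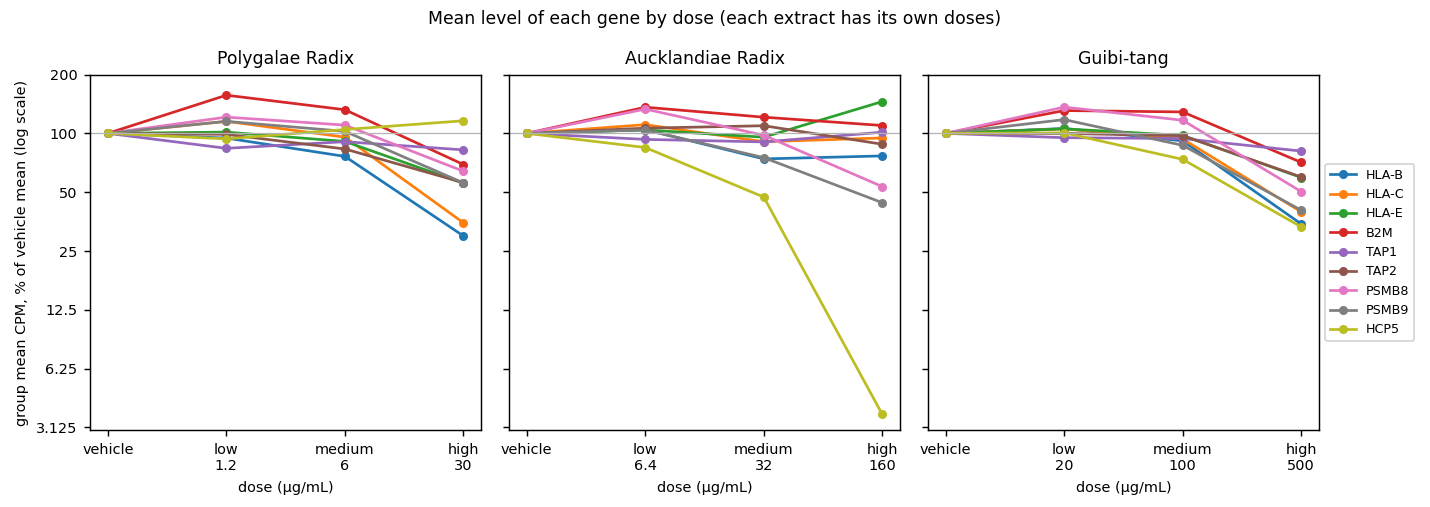
Group mean CPM of each gene as a percentage of the vehicle mean, on a log axis, from vehicle to the high dose of 3 extracts, whose doses in µg/mL differ. With Polygalae Radix and Guibi-tang the heavy chains end between 29.85% and 59.4% of vehicle at the high dose, and with Aucklandiae Radix HCP5 ends at 3.64% while HLA-E ends at 145.5%.

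The transporter genes moved unequally. TAP2 had 68.2 and 74.1 CPM at the high dose of Polygalae Radix, against 128, 122 and 132 CPM in vehicle, and fell by 0.84 on the log2 scale (SE 0.156, edgeR adjusted p = 2.1e-05). With Guibi-tang high it had 76.0, 70.9 and 81.3 CPM and fell by 0.74 (SE 0.137, edgeR adjusted p = 1.6e-05). Both were clear of vehicle, as were all 3 libraries of Menthae Herba high at 106, 96.3 and 74.5 CPM (log2 fold change -0.47, edgeR adjusted p = 0.0107), although that call was lost without Menthae Herba high replicate 3, a length-tilted library (adjusted p = 0.132). TAP1, its partner, had 58.6 and 62.6 CPM with Polygalae Radix high and 58.6, 60.4 and 60.3 CPM with Guibi-tang high, against 76.1, 72.6 and 72.3 CPM in vehicle. The TAP1 log2 fold changes were -0.28 ± 0.10 (edgeR adjusted p = 0.0204) and -0.30 ± 0.09 (edgeR adjusted p = 0.00496), with SE. Scaled by library totals alone both became positive, at 0.12 and 0.17, which is below the shift of the median gene under that scaling. The Polygalae Radix call also failed without high replicate 2 (adjusted p = 0.153). Against the low dose, TAP1 did not pass the test with Polygalae Radix (-0.03, 95% interval -0.24 to 0.19), whereas TAP2 fell by 0.82. With Guibi-tang TAP1 fell by 0.23 against the low dose, a call lost without Guibi-tang low replicate 2 (adjusted p = 0.237). TAP1 fell with Menthae Herba high, to 55.8, 49.5 and 60.8 CPM, against 76.1, 72.6 and 72.3 CPM in vehicle (log2 fold change -0.41 ± 0.09 SE, edgeR adjusted p = 0.00065), and kept that call in all 6 leave-one-out refits but lost it when the compared groups were fitted alone. Saengmaek-san gave the opposite sign for TAP1, with 92.5, 78.7 and 87.7 CPM at the high dose against 72.3, 72.4 and 65.9 CPM at the low dose (0.30 ± 0.09 SE, edgeR adjusted p = 0.0389), a call lost in 5 of 6 leave-one-out refits.

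PSMB8 and PSMB9, the interferon-inducible catalytic subunits, fell with Aucklandiae Radix as well as with Guibi-tang. At the high dose of Aucklandiae Radix PSMB9 had 5.50 and 5.77 CPM, against 13.3, 12.45 and 12.6 CPM in vehicle, with a log2 fold change of -1.18 ± 0.32 (SE, edgeR adjusted p = 0.00334). PSMB8 had 14.5 and 16.4 CPM, against 31.7, 29 and 25.8 CPM in vehicle, with a log2 fold change of -0.91 ± 0.29 (SE, edgeR adjusted p = 0.0146). Neither overlapped vehicle, and PSMB8 lost its call without Aucklandiae Radix high replicate 2 (adjusted p = 0.124). With Guibi-tang high PSMB9 had 5.43, 4.97 and 5.07 CPM and fell by 1.31 (SE 0.274, edgeR adjusted p = 0.00011). PSMB8 had 13.9, 14.8 and 14.9 CPM there and fell by 0.99 (SE 0.255, edgeR adjusted p = 0.00127). With Polygalae Radix high, PSMB9 had 7.06 and 7.18 CPM and fell by 0.84 (edgeR adjusted p = 0.0216), a call lost without high replicate 2 (adjusted p = 0.104). PSMB8 had 16.2 and 20.7 CPM and missed the threshold (-0.65, 95% interval -1.21 to -0.08, edgeR adjusted p = 0.0611). Against the low dose of Polygalae Radix both were called, PSMB8 at -0.92 and PSMB9 at -1.05 (log2), and both calls were lost without high replicate 2 (adjusted p = 0.128 and 0.0514).

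The subunits that PSMB8 and PSMB9 replace are PSMB5 and PSMB6. The log2 ratio of PSMB9 to PSMB6 within a library averaged -4.75 ± 0.22 with Aucklandiae Radix high (SD, n = 2), -2.14 ± 0.17 with Polygalae Radix high (SD, n = 2) and -3.48 ± 0.07 with Guibi-tang high (SD, n = 3), against -2.89 ± 0.04 in vehicle (SD, n = 3). For PSMB8 to PSMB5 the values were -2.94 ± 0.10, -1.39 ± 0.11 and -2.29 ± 0.05 in the same extract groups, against -1.67 ± 0.04 in vehicle. At these high doses both ratios were thus below every vehicle library with Aucklandiae Radix and Guibi-tang and above every vehicle library with Polygalae Radix. With Polygalae Radix high PSMB6 itself fell by 1.59 (log2, edgeR adjusted p = 3.8e-05) and PSMB5 fell by 0.94. A ratio outside the vehicle range was not particular to these groups. With Menthae Herba low, PSMB9 to PSMB6 reached at most -3.05, against a vehicle lowest of -2.93. PSMB8 to PSMB5 was at least -1.58 there, against a vehicle highest of -1.64. No test was run on the ratios.

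HCP5, the noncoding RNA, gave the largest change among the 9. At the high dose of Aucklandiae Radix it had 0.213 and 0.172 CPM, from counts of 5 and 4, against 5.81, 5.39 and 4.67 CPM in vehicle, from counts of 141, 133 and 110. The mean was 3.64% of vehicle, and the log2 fold change was -4.75 ± 0.27 (SE, edgeR adjusted p = 1.9e-17). The dose order was regular: HCP5 had 4.36 and 4.598 CPM at the low dose, 2.19 and 2.81 CPM at the medium dose, and nearly none at the high dose. The medium dose was called too (log2 fold change -1.08 ± 0.18 SE, edgeR adjusted p = 0.0002), and was the only member called of 9 there, where 1.85% of all genes fell. With Guibi-tang, HCP5 had 5.15, 5.55 and 5.27 CPM at the low dose, 3.73, 4.14 and 3.81 CPM at the medium dose, and 1.60, 1.79 and 1.88 CPM at the high dose, which was below vehicle with a log2 fold change of -1.585 (SE 0.162, edgeR adjusted p = 7.3e-11). With Polygalae Radix high it had 6.62 and 5.66 CPM, overlapping vehicle, with a log2 fold change of 0.22 (95% interval -0.11 to 0.54, edgeR adjusted p = 0.297). The calls of HCP5 differed in places from those of HLA-B, whose promoter window resembles its own. With Polygalae Radix high HLA-B fell and HCP5 was not called. With Aucklandiae Radix high HCP5 fell and HLA-B, at 76.66% of the vehicle mean, was not called. With Guibi-tang high both fell, HLA-B to 34.37% and HCP5 to 33.21% of the vehicle mean. No test compared HCP5 with HLA-B. Scaled by library totals alone, HCP5 was called higher with Polygalae Radix (0.61), which is 0.18 above the shifted median gene.

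The genes next to HCP5 did not follow it. MICA, whose span overlaps that of HCP5, averaged 106 ± 5.92 CPM at the high dose of Aucklandiae Radix (SD, n = 2), against 48.8 ± 3.99 CPM in vehicle (SD, n = 3), a log2 fold change of 1.12 ± 0.16 (SE, edgeR adjusted p = 4.1e-07). MICB, a related ligand, averaged 26.9 ± 3.10 CPM, against 14.1 ± 1.02 CPM, a log2 fold change of 0.93 ± 0.10 (SE, edgeR adjusted p = 1.2e-09). Both rose while HCP5 fell. With Polygalae Radix high MICB rose as well (0.81) and MICA fell by 0.54, on the log2 scale. The counting of strand is not given in the sources used here, and HCP5 and MICA lie on the same strand.

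At the high dose of Aucklandiae Radix as a whole, 1 of the 9 rose (HLA-E) and 3 fell (PSMB8, PSMB9 and HCP5), where 15.7% of all genes rose and 17% fell. The same 4 genes were called in the same directions against its low dose, where 10.5% rose and 13.4% fell. A count of 4 of 9 compares with 32.7% of all genes called in either direction, so the count itself does not set the 9 apart. Here the leukocyte markers summed to 4.78 and 4.82 CPM, against 14.2 to 15.0 CPM in vehicle, and the astrocyte and glioma markers to 7146 and 8988 CPM, against 8439 to 8658 CPM.

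**Figure D3:**
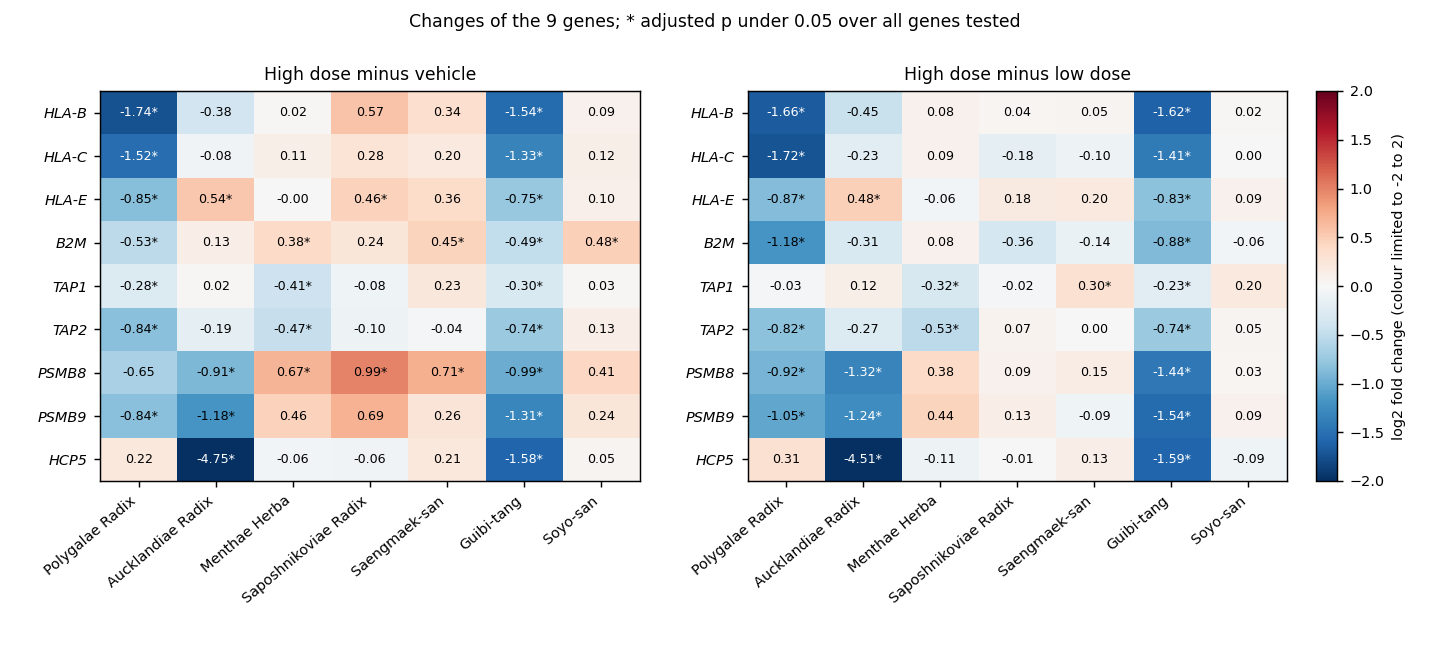
Log2 fold changes of the 9 genes at the high dose of each replicated extract, against vehicle (left) and against the low dose (right), with an asterisk where the edgeR adjusted p is under 0.05. The columns of Polygalae Radix and Guibi-tang are negative for most genes, down to -1.74 for HLA-B, and the HCP5 value of -4.75 with Aucklandiae Radix lies beyond the colour limit.

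The other replicated extracts gave few calls, and several rest on length-tilted libraries. With Menthae Herba high 2 of 9 rose (B2M and PSMB8) and 2 fell (TAP1 and TAP2), where 11.1% of all genes rose and 11.7% fell. Against its low dose 2 fell (TAP1 and TAP2), where 9.28% of all genes fell. PSMB8 had 34.5, 36.7 and 67.0 CPM with Menthae Herba high, against 31.7, 29 and 25.8 CPM in vehicle. The largest value is that of replicate 3, with a length slope of -0.345, and without it the adjusted p was 0.52. With Saposhnikoviae Radix high 2 of 9 rose (HLA-E and PSMB8), where 8.61% of all genes rose. PSMB8 had 35.1, 99.0 and 37.96 CPM and HLA-E 239, 474 and 254 CPM in these libraries. The largest value of each is again 1 library, replicate 2, whose length slope was -0.448. It also held the highest HLA-B of the series, 745 CPM, against 277 and 287 CPM in the other replicates. Without it the adjusted p was 0.497 for PSMB8 and 0.862 for HLA-E.

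At the low dose of Saposhnikoviae Radix 3 of 9 rose against vehicle (HLA-C, B2M and PSMB8), where 9.38% of all genes rose. HLA-C had 448, 493 and 617 CPM there and PSMB8 36.6, 50.6 and 73.5 CPM, and replicates 2 and 3, which hold the larger values, are both length-tilted. The fit without any length-tilted library leaves only replicate 1 in this group. The log2 changes against vehicle were then 0.25 for HLA-C, 0.34 for PSMB8 and 0.62 for B2M, with no replicate behind them. Between high and low doses of Saposhnikoviae Radix edgeR called 0 of 9, with 1 at an unadjusted p under 0.05, where 0.377% of all genes were called in either direction. DESeq2 called 0 as well. That count depended on 1 length-tilted library: without Saposhnikoviae Radix high replicate 2, edgeR called 4 of the 9. The log2 change was then -0.585 for HLA-B and -0.661 for PSMB9. With the length slope as a covariate 2 were called.

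Saengmaek-san high gave 2 of 9 higher than vehicle (B2M and PSMB8), where 8.87% of all genes rose, and 1 higher than its low dose (TAP1), where 2.41% rose. PSMB8 had 50.8, 41.2 and 49.9 CPM at that dose, against 31.7, 29 and 25.8 CPM in vehicle (0.71, edgeR adjusted p = 0.0431), and lost its call in 5 of 6 leave-one-out refits. Soyo-san high gave 1 of 9 higher than vehicle (B2M), where 1.62% of all genes rose, a call lost without any 1 of its 5 libraries. Against the low dose of Soyo-san edgeR called 0, with 0 at an unadjusted p under 0.05, where 0.496% of all genes were called, and DESeq2 called 0. At the medium doses 3 calls, and at the low doses 6, came from 63 tests each of a gene in an extract. Of these B2M at the medium dose of Saengmaek-san (0.50, edgeR adjusted p = 0.0126, where 2.87% of all genes rose) and of Guibi-tang (0.36, with an adjusted p that rounds to 0.05, where 3.67% of all genes rose) have not yet been given. At the low doses, 0.847% of all genes rose with Polygalae Radix, 2.77% with Saengmaek-san and 0.935% with Soyo-san.

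Okbyeongpung-san has 1 library a dose, so its values have no replicate check and no test was made. At 500 µg/mL it had 702 CPM of HLA-B, 653 of HLA-C, 308 of HLA-E, 1028 of B2M, 65.0 of PSMB8, 24.7 of PSMB9, 58.0 of TAP1, 81.2 of TAP2 and 4.03 of HCP5. B2M was the highest of the 60 libraries there. At 20 µg/mL HLA-B had 297 CPM and B2M 746 CPM, and at 100 µg/mL HLA-B had 291 CPM and B2M 803 CPM, among the values of other extracts. The 500 µg/mL library is length-tilted, with a slope of -0.396.

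**Figure D4:**
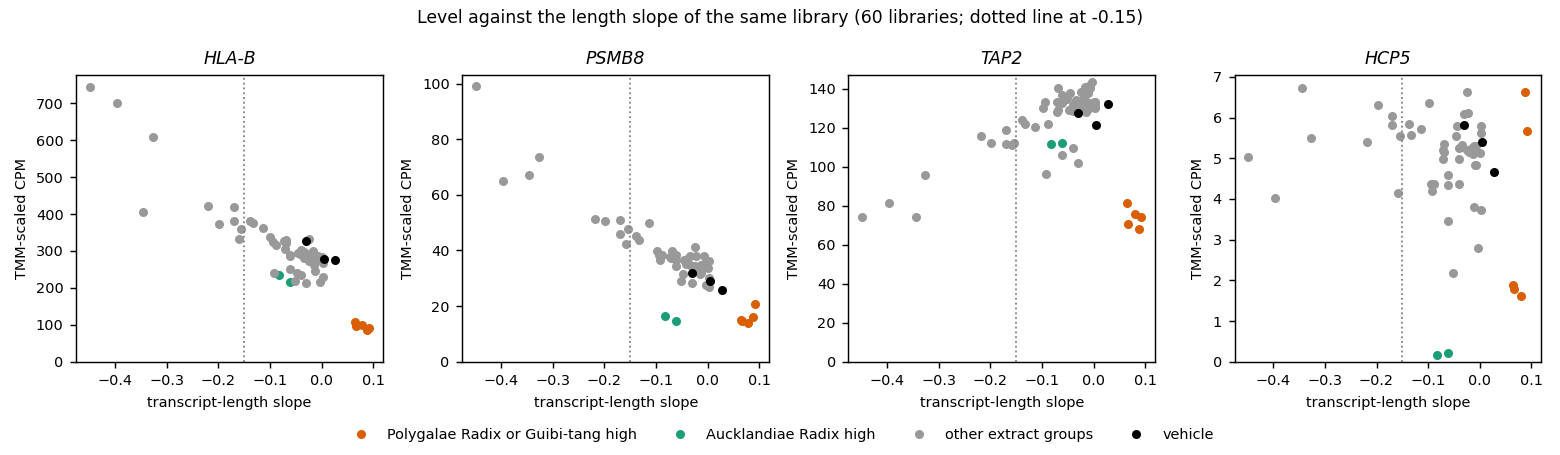
TMM-scaled CPM of HLA-B, PSMB8, TAP2 and HCP5 in the 60 libraries against the transcript-length slope of the same library, with a dotted line at -0.15. HLA-B and PSMB8 are high in the 10 libraries left of the line, at medians of 413 and 51.0 CPM, against 281 and 34.8 CPM in the other 50, and the high-dose Polygalae Radix and Guibi-tang libraries lie at the right with slopes of 0.065 to 0.092.

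The levels of several of the genes moved with the length slope across the series, as the plot against the slope shows. In the 10 tilted libraries the median was 413 CPM for HLA-B, 298 for HLA-E and 20.3 for PSMB9, against 281, 240 and 12.6 CPM in the other 50. B2M, with a shorter median coding transcript (1012 bases) than HLA-E (2601 bases), had medians of 765 CPM in the tilted and 746 CPM in the other libraries. Over all transcripts the median lengths were 732 bases for B2M and 907 for HLA-E. In the 50 libraries that were not tilted, r of the log2 level with the slope was -0.788 for B2M, -0.778 for HLA-B and -0.776 for HLA-E. Across all 60 it was -0.477, -0.806 and -0.753 in the same order. The 50 include the high-dose Polygalae Radix and Guibi-tang libraries, which had the highest slopes and the lowest levels of B2M, HLA-B and HLA-E. No r is given without them. For TAP2, which has the longest coding transcripts among the protein-coding genes of the 9, the medians were 111 CPM in the tilted and 131 CPM in the other libraries. Its r with the slope was -0.509 in the 50 and 0.249 across all 60. The high-dose libraries of Polygalae Radix (slopes 0.088 and 0.092) and Guibi-tang (0.065 to 0.079) lie on the other side of vehicle. With the slope as a covariate, the HLA-B change was -1.46 with Polygalae Radix high and -1.32 with Guibi-tang high. TAP2 fell by 1.01 and 0.87 in that fit, and PSMB9 by 0.53 and 1.07. These high-dose libraries have the highest slopes of the 60, so that fit cannot tell the slope and the treatment apart. The slope's part in the results was not tested.

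The extracts that share a library set were compared directly, by the difference between their changes from low to high dose. The doses differ between Polygalae Radix and Aucklandiae Radix. Polygalae Radix minus Aucklandiae Radix, 1 of 9 differences was called above 0 and 4 below, where 15.2% of all genes were above and 18.7% below. HLA-C differed by -1.50 (SE 0.239, edgeR adjusted p = 3.2e-06), HLA-E by -1.35 (SE 0.246, edgeR adjusted p = 2.8e-05), HLA-B by -1.22 (SE 0.404, edgeR adjusted p = 0.0169) and B2M by -0.87 (SE 0.202, edgeR adjusted p = 0.00071). HCP5 differed by 4.82 (SE 0.346, edgeR adjusted p = 2.1e-14), the other way. So the change from low to high dose was more negative with Polygalae Radix for the class I chains, of which HLA-E was called higher with Aucklandiae Radix, and more negative with Aucklandiae Radix for HCP5, which was not called with Polygalae Radix. The immunoproteasome genes were not separated, at 0.40 for PSMB8 (95% interval -0.46 to 1.25) and 0.19 for PSMB9 (95% interval -0.73 to 1.11), and neither were TAP1 (-0.15, 95% interval -0.45 to 0.16) or TAP2 (-0.55, adjusted p = 0.0699). The HLA-B difference lost its call in 3 of 8 leave-one-out refits (adjusted p up to 0.0882, without Polygalae Radix low replicate 3).

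Guibi-tang and Saengmaek-san, both at 500 and 20 µg/mL, differed in all 9 genes, where 19.9% of all genes were called below 0. The differences, Guibi-tang minus Saengmaek-san, ran between -0.53 for TAP1 (SE 0.127, edgeR adjusted p = 0.00107) and -1.73 for HCP5 (SE 0.218, edgeR adjusted p = 3.1e-08). HLA-B differed by -1.67 (SE 0.331, edgeR adjusted p = 8.9e-05). All 9 calls held in each of the 12 leave-one-out refits. Menthae Herba and Saposhnikoviae Radix, at the same doses, differed in 1 of 9, TAP2 (-0.60, SE 0.192, edgeR adjusted p = 0.0375), where 7.01% of all genes were called below 0, and that call was lost in 8 of 12 leave-one-out refits. HLA-B there had a difference of 0.04 (95% interval -0.61 to 0.68).

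**Figure D5:**
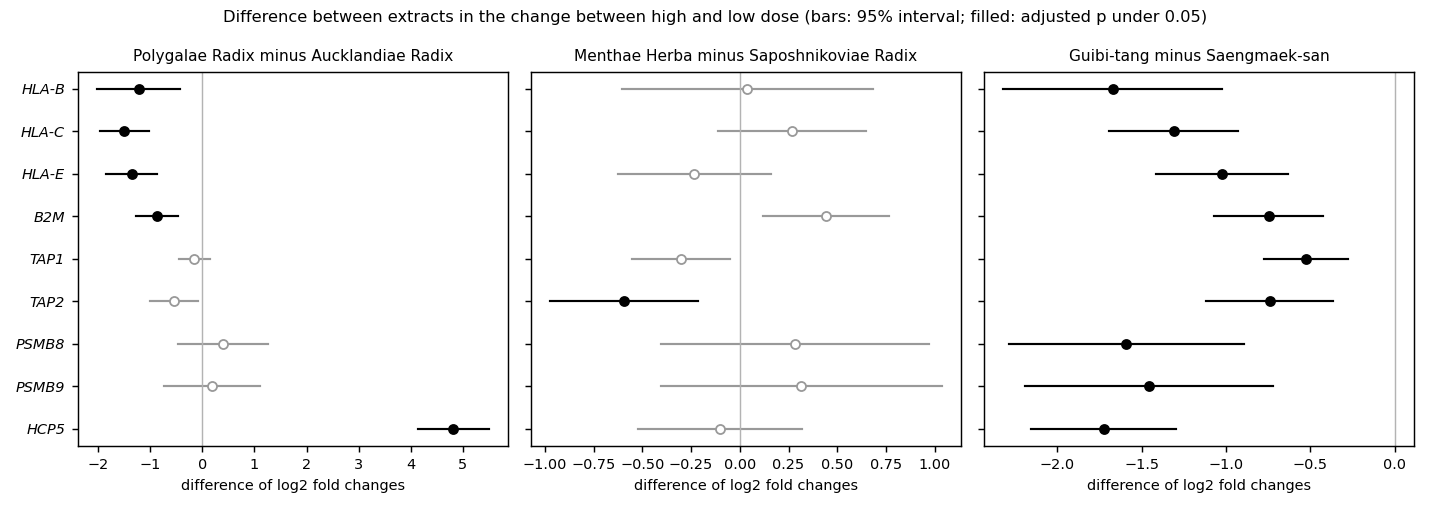
Difference between extracts of a library set in the log2 change from low to high dose, with 95% intervals and filled points where the edgeR adjusted p is under 0.05. All 9 genes lie below 0 for Guibi-tang minus Saengmaek-san, while HCP5 at 4.82 lies opposite to the heavy chains for Polygalae Radix minus Aucklandiae Radix.

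Other genes of the pathway fell at the same doses, where 25.6% of all genes fell with Polygalae Radix high and 26.6% with Guibi-tang high. MR1, a class I-like molecule that presents vitamin metabolites, averaged 15.6 ± 0.266 CPM with Polygalae Radix high (SD, n = 2), against 26.1 ± 0.819 CPM in vehicle (SD, n = 3), a log2 fold change of -0.74 (edgeR adjusted p = 7.3e-07). Of 7 genes of peptide loading and trimming, 6 fell and ERAP2 rose with Polygalae Radix high, the ERAP2 call being lost in 2 leave-one-out refits. The falls were led by CALR, the chaperone calreticulin (log2 fold change -2.30 ± 0.17 SE), and ERAP1, an aminopeptidase that trims peptides (-2.10 ± 0.28 SE). Guibi-tang high gave the same counts in this list, with the ERAP2 call lost in 3 refits, CALR at -1.74 ± 0.14 and PDIA3, a disulfide isomerase of the loading complex, at -1.57 ± 0.12 (SE). CALR and PDIA3 also fold proteins outside this pathway. All 3 other interferon-inducible proteasome parts fell with both extracts, with PSME1, an activator subunit, at -1.78 with Polygalae Radix and -1.62 with Guibi-tang (log2). Of the constitutive catalytic subunits 3 of 3 fell with Polygalae Radix and 2 of 3 with Guibi-tang, so the falls were not limited to interferon-inducible parts.

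The regulators were mixed in direction. Of 16 genes of interferon signalling and class I transcription, 5 rose and 3 fell with Polygalae Radix high, and 4 rose and 5 fell with Guibi-tang high. Of all 19366 genes, 4330 rose and 4962 fell with Polygalae Radix high, and 4577 rose and 5149 fell with Guibi-tang high, so these counts are near those of all genes. JAK1, a kinase of interferon receptors, fell by 1.32 with Polygalae Radix and by 1.14 with Guibi-tang. IRF1, which binds the interferon-stimulated response element, rose by 1.04 ± 0.13 (SE) with Polygalae Radix (edgeR adjusted p = 5.7e-09) and by 0.74 ± 0.12 (SE) with Guibi-tang (edgeR adjusted p = 1e-06). It stands outside the rule for naming list genes and was chosen after its values were seen. Of 8 MHC class II genes 7 fell with either extract, where 25.6% of all genes fell with Polygalae Radix high and 26.6% with Guibi-tang high. Their levels were low: HLA-DRB1 averaged 0.0146 CPM with Polygalae Radix high and 0.0439 CPM with Guibi-tang high, against 0.303 CPM in vehicle. With Aucklandiae Radix high 2 of the 16 regulators rose and 6 fell, where 15.7% of all genes rose and 17% fell. The falls were led by NLRC5 (-0.81 ± 0.13 SE, edgeR adjusted p = 2.8e-06) and IRF9 (-0.65 ± 0.16 SE). HLA-F and MR1 fell there, the HLA-F call being lost in 2 of 5 leave-one-out refits, and of the loading genes TAPBP alone was called (-0.27, lost in 4 of 5 refits).

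Across the 25 group means of log2 CPM, HLA-B and HLA-C had r = 0.968 and PSMB8 and PSMB9 r = 0.976, while HCP5 with HLA-B had r = 0.253 and TAP1 with PSMB8 r = 0.118. These are descriptions over groups that share library sets, length slopes and, for HLA-B and HLA-C, divided reads. With the mean of the 9, PSMB8 (r = 0.959) and PSMB9 (r = 0.957) were most alike and TAP1 (r = 0.258) and TAP2 (r = 0.51) least. That mean includes the gene itself, so part of each r is built in, and genes with large changes weigh more in it. The genes outside the 9 with the closest pattern to their mean over the 25 groups were OGFOD3 (r = 0.981), CNP (r = 0.975), GSTM4 (r = 0.971), ADAM15 (r = 0.971) and PDHB (r = 0.968). For HCP5 alone they were DNAJC22 (r = 0.983), GPR173 (r = 0.957), CENPA (r = 0.955), BTN3A3 (r = 0.953) and IFI44L (r = 0.951), a separate set of names.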

How the data were processed

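RNA of SW1783 cells was sequenced in 60 libraries of 25 groups. Per the submitters' processing notes, the authors checked and trimmed reads with FastQC 0.11.9 and Trim Galore 0.6.5 and used STAR 2.7.3a, RSEM 1.3.3 and GRCh38. The authors deposited expected counts per gene, estimates that are not whole where reads fit several genes or transcripts (24.4% of values above 0). Per the labels' protocols the library kit keeps strand. The annotation release and the strand setting of the counting are not given in the sources used here. Symbols came from a reference table, which matched 41209 of 60675 identifiers, and positions from GENCODE 29.

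Expected counts were rounded and TMM-scaled. Genes passed edgeR's filterByExpr (minimum count 10, minimum total 15). edgeR 4.0.16 (R 4.3.3) fitted a mean for each of the 25 groups, so groups of 2 share the spread of all groups (35 residual degrees of freedom), with two-sided quasi-likelihood tests in 28 comparisons of groups and 3 of extracts, each adjusted by Benjamini-Hochberg over 19366 genes. Intervals are at 95%, and ± is stated as SD or SE. Library totals ran between 19031094 and 37686975 counts. Replicate pairs that differed by less than sampling noise numbered 0. Coverage of a gene by few reads, as for HCP5, limits its precision.

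The alternatives were DESeq2 1.42.0, its size factors, library totals alone, no filter, the compared groups alone, a replicate block, no length-tilted libraries, each library left out in turn (57 refits, which reuse the trended dispersion of the full fit) and, chosen after seeing the data, the length slope as a covariate. The slope used 10020 protein-coding genes. Deviations from the group mean were correlated between same-numbered libraries of a set. The median r was 0.08 over 126 pairs, but r ran from -0.897 to 0.904 and 58 pairs were over 0.1. Some same-numbered libraries thus deviated together and others did not. The labels state no pairing, and numbers were not taken to pair samples in the main fit. The scripts were tested on simulated counts. All 9 genes are named in every group, with at most 2 called genes of each other list a comparison, and the 5 genes most alike in pattern. The genes and lists were chosen with earlier results of these data known. Hot-water extracts were not analysed here, and some genes of the lists and a sum over class I genes are not reported here.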

Additional observations from a re-analysis of the deposited data

Results flagged for a closer look

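Differences between extracts of a library set in the change from low to high dose were called by edgeR's quasi-likelihood test in 15 of 27 gene and extract pairs, and each is given here on the log2 scale. For Polygalae Radix minus Aucklandiae Radix, whose doses differ, they were -1.22 for HLA-B, -1.50 for HLA-C, -1.35 for HLA-E, -0.87 for B2M and 4.82 for HCP5. For Menthae Herba minus Saposhnikoviae Radix the difference was -0.60 (-0.595) for TAP2, where Menthae Herba high replicate 3 and Saposhnikoviae Radix high replicate 2 and low replicates 2 and 3 are length-tilted. For Guibi-tang minus Saengmaek-san they were -1.67 for HLA-B, -1.31 for HLA-C, -1.02 for HLA-E, -0.75 for B2M, -0.53 (-0.525) for TAP1, -0.74 for TAP2, -1.59 for PSMB8, -1.46 (-1.455) for PSMB9 and -1.73 for HCP5. No group has 4 or more libraries, so none was screened for a single deviating library by a rule.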

How the results depend on the processing

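Of 76 calls of the 9 genes, 48 held in every leave-one-out refit and 28 were lost in at least 1. The number of genes called, given with its lowest and highest value over these refits, was 4 (2 to 3) for Aucklandiae Radix high minus low, 4 (2 to 4) for Aucklandiae Radix high, 9 (8 to 9) for Guibi-tang high minus low, 9 (9 to 9) for Guibi-tang high, 2 (1 to 2) for Menthae Herba high minus low, 4 (1 to 4) for Menthae Herba high, 7 (5 to 7) for Polygalae Radix high minus low and 7 (4 to 7) for Polygalae Radix high, where "high" alone is against vehicle. It was 1 (0 to 1) for Saengmaek-san high minus low, 2 (1 to 4) for Saengmaek-san high, 0 (0 to 4) for Saposhnikoviae Radix high minus low, 2 (0 to 5) for Saposhnikoviae Radix high, 1 (0 to 0) for Soyo-san high, 6 (2 to 9) over the low doses and 3 (1 to 4) over the medium doses. Between extracts it was 5 (4 to 5) for Polygalae Radix minus Aucklandiae Radix, 1 (0 to 6) for Menthae Herba minus Saposhnikoviae Radix and 9 (9 to 9) for Guibi-tang minus Saengmaek-san.

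Counts that moved by over 1.5 times were these. With the compared groups fitted alone they were 7 for Aucklandiae Radix high minus low, 0 for Menthae Herba high and for Menthae Herba high minus low, 0 for Saposhnikoviae Radix high, 4 for Saengmaek-san high and 0 against its low dose, 2 for Soyo-san high, 0 for Menthae Herba minus Saposhnikoviae Radix, 15 over the medium and 12 over the low doses. With the length slope as a covariate they were 7 for Aucklandiae Radix high minus low, 6 for Menthae Herba high minus low, 1 for Saposhnikoviae Radix high and 2 against its low dose, 4 for Saengmaek-san high and 3 against its low dose, 2 for Soyo-san high, 8 for Polygalae Radix minus Aucklandiae Radix, 6 for Menthae Herba minus Saposhnikoviae Radix, 21 over the medium and 13 over the low doses. Without length-tilted libraries they were 4 for Menthae Herba high minus low, 0 for Saposhnikoviae Radix high, 4 for Saengmaek-san high, 2 for Soyo-san high, 3 for Menthae Herba minus Saposhnikoviae Radix, 17 over the medium and 10 over the low doses. The fit without tilted libraries leaves 1 library of Saposhnikoviae Radix low. Its counts over the low doses and for Menthae Herba minus Saposhnikoviae Radix rest partly on that library. By library totals alone the counts were 1 for Menthae Herba high minus low, 4 for Saengmaek-san high, 4 for Guibi-tang high, 3 for Polygalae Radix minus Aucklandiae Radix and 7 over the medium doses. These counts take both directions together, so that of Polygalae Radix high by library totals includes HCP5 called higher. With no filter they were 1 for Menthae Herba high minus low, 1 for Saposhnikoviae Radix high, 1 for Saengmaek-san high and 0 against its low dose, 0 for Soyo-san high and 0 for Menthae Herba minus Saposhnikoviae Radix. DESeq2 gave 2 for Menthae Herba minus Saposhnikoviae Radix and 8 over the medium doses. With the replicate block, all 19 counts stayed within 1.5 times, with 7 for Polygalae Radix high.

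Directions reversed for TAP1 by library totals alone: Polygalae Radix high 0.12 and against its low dose 0.36, Guibi-tang high 0.17 and against its low dose 0.16. With the slope covariate they reversed for Menthae Herba high in HLA-B (-0.53) and HLA-C (-0.19), against its low dose in HLA-B (-0.44), HLA-C (-0.20, from -0.195) and PSMB8 (-0.21, from -0.205), and in Menthae Herba minus Saposhnikoviae Radix in HLA-B (-0.52) and PSMB8 (-0.32). TAP2 reversed in that fit for Saposhnikoviae Radix low (0.19) and for Saengmaek-san high (0.14), medium (0.23) and low (0.19, from 0.185). Without tilted libraries HLA-B reversed for Menthae Herba high (-0.27). Without Saposhnikoviae Radix high replicate 2, the high minus low change of Saposhnikoviae Radix reversed in HLA-B (-0.585, within a range of -0.585 to 0.403 over the refits) and in PSMB9 (-0.661, within -0.661 to 0.41). The causes were not tested. Low counts limit HCP5 at the high dose of Aucklandiae Radix.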
